A study of Danio rerio with 6 samples.

Results

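Genes known from zebrafish macrophages, 10 in all (mpeg1.1, mpeg1.2, marco, mfap4, csf1ra, c1qa, c1qb, c1qc, grn1 and ctss2.1), were followed in RNA from the distal late (DL) segment of the adult zebrafish kidney and from the remainder of that organ. They were chosen by symbol, ignoring case, and they matched 16 of the 31953 Ensembl gene identifiers in the table. The symbols mpeg1.1 and mpeg1.2 were both listed without their copy number, so all 3 MPEG1 identifiers were taken, and which copy each represents is not given. The symbol mfap4 matched 6 identifiers, all listed as MFAP4. The gene grn1 is listed as grna.1, and RefSeq gives grn1 as its synonym. Where several identifiers carry 1 symbol, each is printed as the symbol joined to its identifier.

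The libraries came from adult fish carrying the Tg(slc12a3:mCherry) transgene. In 3 libraries the RNA came from DL segments, labelled mCh+, and in 3 from the mesonephros, the adult kidney, without those segments, labelled mCh-. All fish carried the transgene, whose mCherry reporter is driven from slc12a3, the gene of the thiazide-sensitive sodium-chloride cotransporter of the distal tubule. Segments were dissected by hand, so the DL libraries did not come from sorted cells. Values of 3 libraries are given in the order of replicates 1, 2 and 3 throughout. The labels do not say whether libraries came from separate fish or whether DL and rest libraries shared fish, so each p-value reflects only how these libraries vary, which may be technical.

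In zebrafish the space between the kidney tubules holds the marrow, the main site of adult blood formation, and macrophages live there among developing blood cells. Macrophages are phagocytes that take up microbes and dying cells, digest them in lysosomes and depend on signals through the receptor encoded by csf1r genes. They are also a main source of C1q, the recognition protein that starts the classical complement pathway.

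Deposited counts summed to between 9320756 and 22776825 per DL library and between 11109171 and 18329049 per rest library. The 20 most abundant genes took 81.5% of counts in DL replicate 1 and 81.5% in rest replicate 3, against 37.0% to 56.8% in the other 4 libraries. SLC12A3 stood at 251, 905 and 32.9 CPM (counts scaled to a common library size after TMM normalization) in the 3 DL libraries, against 41.9, 30.4 and 43.0 CPM in the 3 rest libraries. The library labelled DL replicate 3 was therefore within the rest range for the reporter's own gene. The summed level of 16 identifiers of the distal tubule list was 5725, 6220 and 1170 CPM in the 3 DL libraries, against 225, 136 and 204 CPM in the 3 rest libraries, with every DL library above every rest library.

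None of the 16 macrophage identifiers was called higher or lower in DL than in rest libraries. C1q chain, scavenger receptor, growth factor receptor and cathepsin S transcripts had lower fitted levels in DL, and 1 MPEG1 identifier and 3 of 4 tested MFAP4 identifiers had higher ones. One MPEG1 identifier was at 0 in all 6 libraries, and 2 MFAP4 identifiers had too few counts to be tested. Of the 13 tested, 0 were called at an adjusted p under 0.05 by edgeR's quasi-likelihood test over 17083 genes, with adjusted p from 0.487 to 0.999. Over all genes that test called 0% lower and 0.0644% higher in DL. DESeq2 called 0 of 14 members with an adjusted p and 0.413% of all genes lower in DL, and limma-voom called 0 members and 0% of all genes lower. At an unadjusted edgeR p under 0.05, 1 member (c1qc) was lower and 0 were higher, against 2.73% and 4.09% of all genes.

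Of the 13 tested members, 9 had a negative log2 fold change (DL minus rest), as had 53.5% of all genes tested. Their median was -1.09, against -0.07 for all genes, and 7 of 13 lay under -1, against 15.9% of all genes. All genes were not matched to the members in abundance, and the members' standard errors ran from 0.63 to 2.04. Some members also varied together, with Pearson coefficients of pairs up to 0.99. In TMM-scaled CPM, every DL library was below every rest library in 2 of 13, c1qc and MPEG1_ENSDARG00000055290, against 6.28% of all genes. In 0 was every DL library above, against 6.82%. Without the library labelled DL replicate 3 the median was -1.34, and without rest replicate 1 or rest replicate 2 it was -0.61 or -0.72. No member was called, and in bulk tissue macrophage number, RNA per macrophage and RNA from other cells cannot be told apart.

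**Figure D1:**
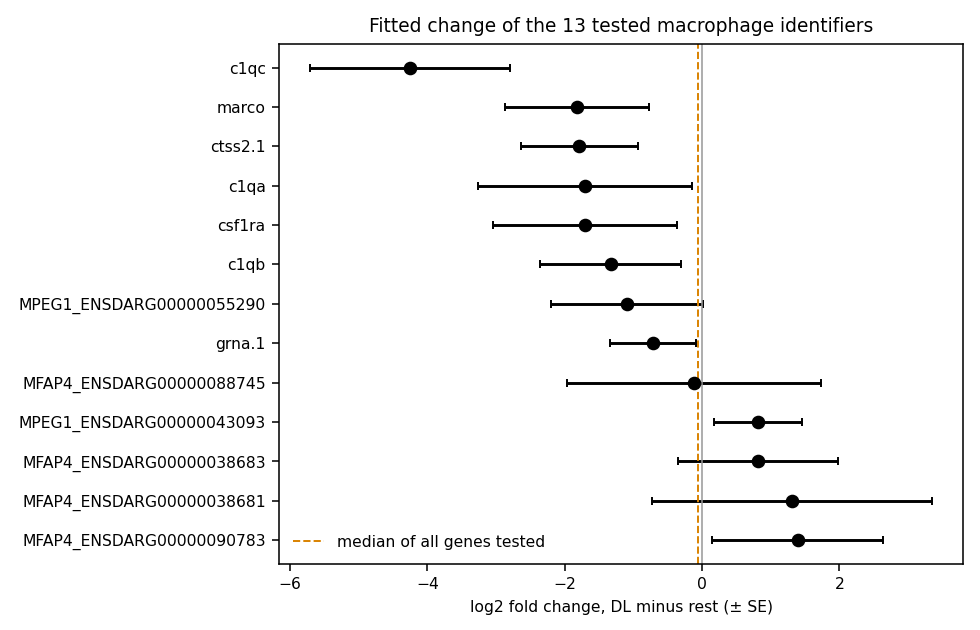
Log2 fold change (DL minus rest, x axis) of the 13 tested macrophage identifiers, as points with bars of 1 standard error (SE), sorted with the lowest at the top; the dashed line is the median of all genes tested (-0.07). Points run from -4.25 for c1qc to 1.39 for MFAP4_ENSDARG00000090783.

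The spread within groups was wide. On the scale of log2(CPM + 0.5), the range within DL or within rest was larger than the difference of the group means for 12 of the 13 tested members. The exception was c1qc, with a range of 1.49 in DL and 2.39 in rest and a difference of -3.05. The same count was not made over all genes, so whether 12 of 13 is an ordinary share is not known. Summed over all 16 identifiers, the members stood at 18.1, 126 and 105 CPM in the 3 DL libraries, against 127, 127 and 63.9 CPM in the 3 rest libraries. DL replicate 1 was the lowest library and rest replicate 3 the next lowest. Those are the libraries whose counts were most concentrated in 20 genes. Members at 1 or more rounded counts numbered 7, 15 and 14 of 16 in the DL libraries and 12, 15 and 13 in the rest libraries.

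**Figure D2:**
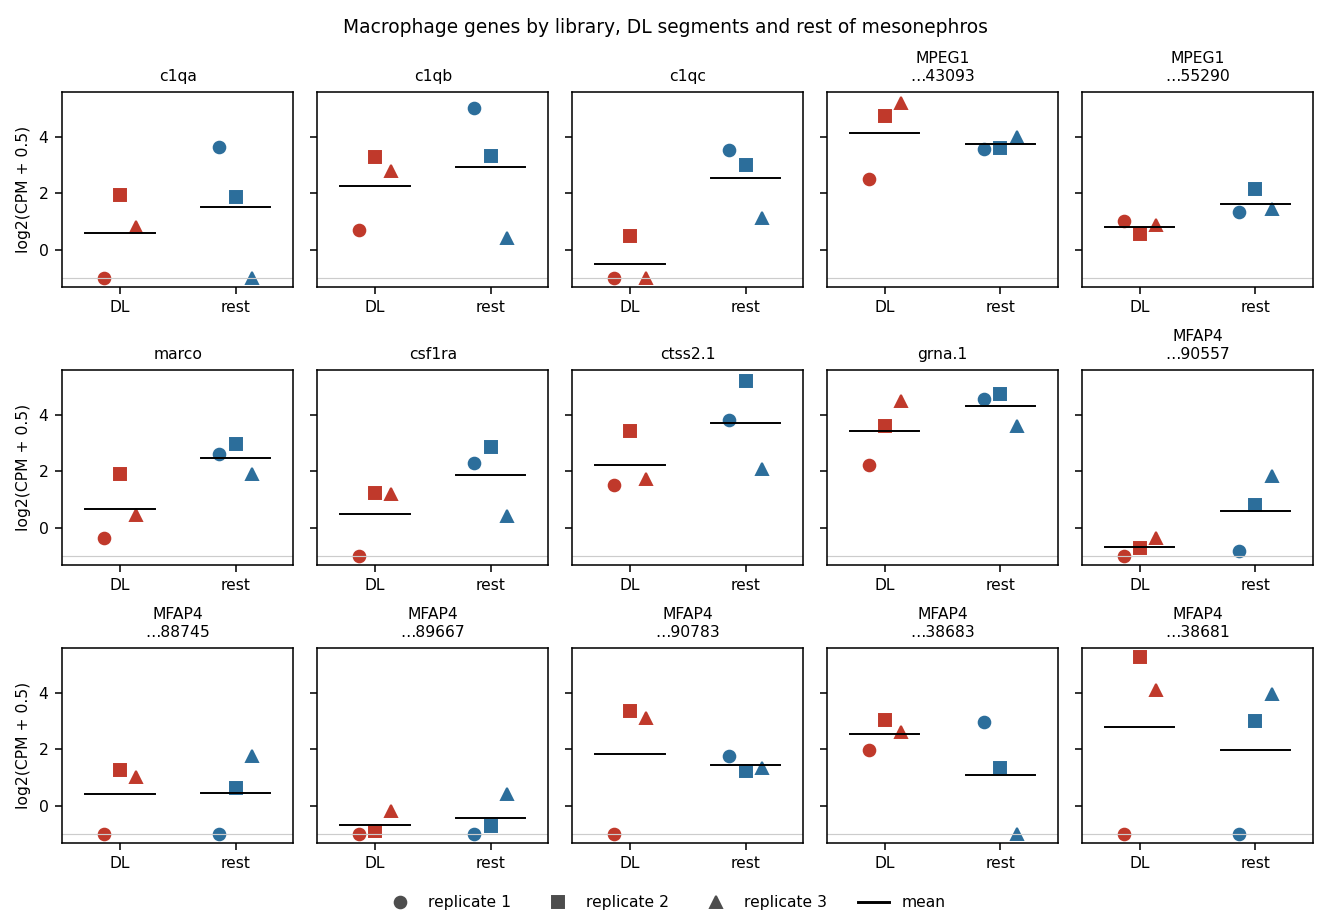
Level of the 15 macrophage identifiers with any count, as log2(CPM + 0.5), in each DL library (red, left) and each rest library (blue, right); marker shapes are replicates, black lines are group means and grey lines mark 0 CPM. DL replicate 1 is at 0 CPM in 8 of the 15 panels, and the groups overlap in all panels but c1qc and MPEG1_ENSDARG00000055290.

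C1q is assembled from 3 chains, A, B and C, encoded by c1qa, c1qb and c1qc, which are consecutive coding genes in the RefSeq annotation of GRCz12tu. The c1qc gene had 0, 24 and 0 counts in the 3 DL libraries, against 362, 138 and 10 counts in the 3 rest libraries. It averaged 0.302 ± 0.524 CPM over DL and 6.73 ± 4.71 CPM over rest libraries (SD, n = 3 each), with every DL library lower. This lack of overlap rests on TMM scaling. Per deposited total the groups overlapped, with 24 counts of 22776825 in DL replicate 2 and 10 of 11109171 in rest replicate 3. The log2 fold change of c1qc was -4.25 ± 1.45 (SE), with an unadjusted p of 0.0132 and an adjusted p of 0.487 by edgeR, so it was not called over all genes. DESeq2 gave -4.31 ± 1.33 with an adjusted p of 0.0633. DL replicate 2 held all of the DL counts of c1qc. Without that library the DL group had 0 counts, and no fold is given for it. The ratio of the means over all libraries, DL over rest, was 0.0449.

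The c1qa gene had 0, 89 and 13 counts in the 3 DL libraries, against 398, 59 and 0 counts in the 3 rest libraries. In CPM this was 0, 3.36 and 1.23 in DL and 12.1, 3.19 and 0 in the rest, so the groups overlapped. A count of 0 allows up to 3 counts, which is 0.417 CPM in DL replicate 1 and 0.508 CPM in rest replicate 3, the libraries at 0, for counting error only. The c1qb gene, the most counted chain in 5 of 6 libraries, had 8, 245 and 69 counts in the 3 DL libraries, against 1062, 176 and 5 counts in the 3 rest libraries. Rest replicate 1 alone was far above the DL libraries for both genes. The log2 fold change was -1.71 ± 1.56 for c1qa (edgeR adjusted p = 0.987) and -1.33 ± 1.03 for c1qb (edgeR adjusted p = 0.960). Without rest replicate 1 they were -0.07 and 0.11, so the sign of c1qb turned with that library.

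Shares of the 3 chains within a library do not depend on how libraries are scaled. The c1qc chain took 0 of 8, 24 of 358 and 0 of 82 C1q counts in the 3 DL libraries. These are 0%, 6.70% and 0%, with exact (Clopper-Pearson) 95% intervals of 0% to 36.9%, 4.34% to 9.81% and 0% to 4.399%. In rest replicates 1 to 3 it took 362 of 1822, 138 of 373 and 10 of 15, which are 19.9%, 37.0% and 66.7%, with intervals of 18.1% to 21.8%, 32.1% to 42.1% and 38.4% to 88.2%. Every DL library had a lower c1qc share than every rest library, although the interval of DL replicate 1, with 8 counts, reaches above the share in rest replicate 1. Intervals cover counting error only, and they treat each count as independent. No molecular identifiers are named in the labels, so the intervals may be too narrow if molecules were counted more than once. The c1qb share was 100%, 68.4% and 84.1% in the 3 DL libraries, against 58.3%, 47.2% and 33.3% in the 3 rest libraries. The shares of a library sum to 100%, so the c1qb share is no separate result beside that of c1qc. An exact two-sided permutation test of the c1qc share gave p = 0.1 (adjusted p = 0.1 over 2 shares tested), which is the smallest p that 3 against 3 libraries allow, and it was added after the values were seen.

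**Figure D3:**
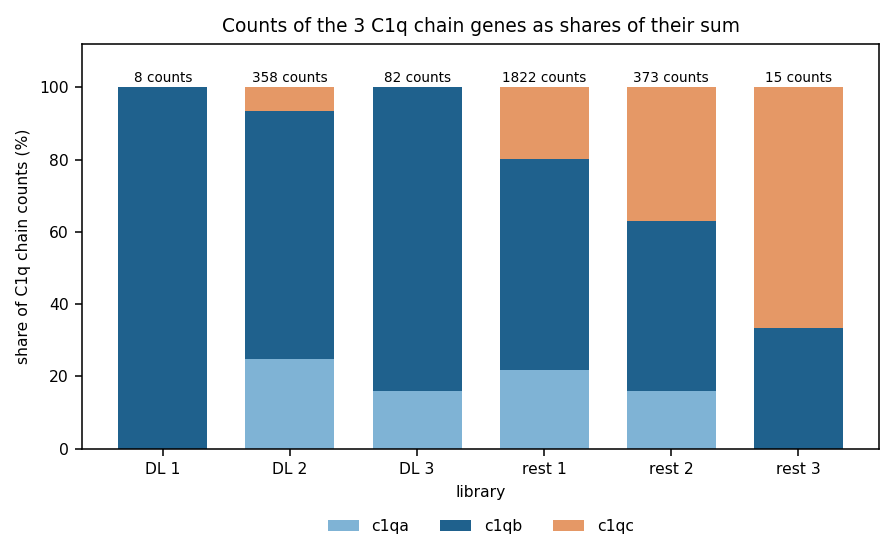
Share (%) of the summed counts of c1qa, c1qb and c1qc taken by each gene in the 3 DL and 3 rest libraries, with the summed counts above each bar. The c1qc share runs from 0% to 6.70% in DL and from 19.9% to 66.7% in the rest, where the DL replicate 1 and rest replicate 3 bars rest on 8 and 15 counts.

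Ratios of member pairs within a library were compared as well. The log2 ratio of c1qc to c1qa (0.5 added to each count) was 0, -1.87 and -4.75 in the 3 DL libraries, against -0.14, 1.22 and 4.39 in the 3 rest libraries, and the groups overlapped. In DL replicate 1 both genes had 0 counts, so its ratio carries no information, and in rest replicate 3 c1qa had 0 counts. The difference was -4.03, with an exact two-sided permutation p of 0.2 (adjusted p = 0.45 over 3 ratios). The log2 ratio of c1qb to c1qa averaged 2.64 ± 1.34 in DL and 2.15 ± 1.14 in the rest (SD, n = 3 each; exact permutation p = 0.6). In the 3 libraries with the most C1q counts this ratio lay close together, at 1.46 in DL replicate 2 and at 1.41 and 1.57 in rest replicates 1 and 2.

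MPEG1 encodes perforin-2, a pore-forming protein that macrophages use against bacteria they have taken up. The identifier MPEG1_ENSDARG00000043093 stood at 5.14, 26.6 and 36.2 CPM in the 3 DL libraries, against 11.5, 11.9 and 15.6 CPM in the 3 rest libraries. DL replicates 2 and 3 were above all rest libraries and DL replicate 1 was below them. Its log2 fold change was 0.81 ± 0.64 (edgeR adjusted p = 0.965), or 0.35 without DL replicate 3 and 1.33 without DL replicate 1. The identifier MPEG1_ENSDARG00000055290 had 11, 26 and 14 counts in the 3 DL libraries, against 66, 73 and 13 counts in the 3 rest libraries. In CPM it stood at 1.53, 0.983 and 1.32 in DL and at 2.01, 3.95 and 2.203 in the rest, with every DL library lower. Its log2 fold change was -1.09 ± 1.11 (edgeR adjusted p = 0.999). The lack of overlap rests on TMM scaling. DL replicate 3 had more counts than rest replicate 3 at a smaller deposited total (9320756 against 11109171). MPEG1_ENSDARG00000078569 had 0 counts in all 6 libraries.

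The MPEG1 identifiers thus had fitted changes of opposite sign. The log2 ratio of MPEG1_ENSDARG00000043093 to MPEG1_ENSDARG00000055290 was 1.71, 4.73 and 4.73 in the 3 DL libraries, against 2.51, 1.58 and 2.78 in the 3 rest libraries. Means were 3.72 ± 1.75 in DL and 2.29 ± 0.63 in the rest (SD, n = 3 each), and the difference of 1.43 had an exact two-sided permutation p of 0.3 (adjusted p = 0.45 over 3 ratios). Without DL replicate 1 the difference was 2.44. With the identifiers of the symbol summed, an alternative added after the data were seen, MPEG1 had a log2 fold change of 0.61 ± 0.60 (edgeR adjusted p = 0.997).

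Among the surface receptors, marco encodes a scavenger receptor that binds bacteria. It had 2, 87 and 9 counts in the 3 DL libraries, against 184, 134 and 19 counts in the 3 rest libraries. In CPM it stood at 0.278, 3.29 and 0.851 in DL and at 5.60, 7.26 and 3.22 in the rest. The groups touched only where DL replicate 2 lay just above rest replicate 3, and the log2 fold change was -1.82 ± 1.05 (edgeR adjusted p = 0.861). Without DL replicate 2 it was -3.20.

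The gene csf1ra encodes a receptor for colony-stimulating factor 1, and in zebrafish it also acts in pigment cells. It stood at 0, 1.85 and 1.80 CPM in the 3 DL libraries, against 4.44, 6.82 and 0.847 CPM in the 3 rest libraries. Rest replicate 3, with 5 counts, lay among the DL libraries, and the log2 fold change was -1.71 ± 1.34 (edgeR adjusted p = 0.963). Its duplicate csf1rb, which is no member and was named after its values were seen, had 227, 1446 and 701 counts in the 3 DL libraries, against 4032, 949 and 316 counts in the 3 rest libraries. It averaged 50.8 ± 17.7 CPM over DL and 75.9 ± 40.6 CPM over rest libraries, with a log2 fold change of -0.58 ± 0.50 (edgeR adjusted p = 0.981). In every library csf1rb was thus counted more often than csf1ra, a comparison that is not per length.

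The lysosomal members were ctss2.1 and grna.1. The gene ctss2.1 encodes a cathepsin S, a lysosomal cysteine protease known for its part in antigen presentation. It stood at 2.36, 10.2 and 2.84 CPM in the 3 DL libraries, against 13.7, 36.2 and 3.73 CPM in the 3 rest libraries. DL replicate 2 was above rest replicate 3 and all other DL values were below the rest. The log2 fold change was -1.79 ± 0.85, with an unadjusted p of 0.0573 and an adjusted p of 0.752 by edgeR, and without rest replicate 2 it was -0.76.

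The related gene ctss2.2, not a member, had a fitted change of opposite sign. It stood at 29.5, 66.2 and 39.1 CPM in the 3 DL libraries, against 23.8, 12.3 and 16.9 CPM in the 3 rest libraries, with every DL library above every rest library. This lack of overlap rests on TMM scaling. Per deposited total the groups overlapped, with 211.9 counts of 13863861 in DL replicate 1 and 782.8 of 18329049 in rest replicate 1. The log2 fold change of ctss2.2 was 1.34 ± 0.49 (edgeR unadjusted p = 0.0176, adjusted p = 0.523). Both have fractional estimated counts, and where related copies share reads their separate values are uncertain.

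The gene grna.1 encodes a short granulin, a relative of progranulin, the secreted and lysosomal growth factor. It stood at 4.17, 11.6 and 21.8 CPM in the 3 DL libraries, against 23.5, 26.6 and 11.7 CPM in the 3 rest libraries. DL replicate 3 lay inside the rest range, and the log2 fold change was -0.72 ± 0.63 (edgeR adjusted p = 0.985), or -1.34 without DL replicate 3 and -0.27 without DL replicate 1. The related genes grna and grnb were both named after their values were seen. The fitted change of grna was opposite in sign to that of grna.1, and that of grnb had the same sign. The grna gene averaged 75.9 ± 36.0 CPM over DL and 41.4 ± 24.0 CPM over rest libraries (SD, n = 3 each). Its log2 fold change was 0.87 ± 0.55 (edgeR adjusted p = 0.899). The grnb gene averaged 11.0 ± 0.51 CPM over DL and 12.8 ± 8.80 CPM over rest libraries, with a log2 fold change of -0.22 ± 0.60 (edgeR adjusted p = 0.999).

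The mfap4 genes form a tandem family in zebrafish whose regulatory DNA is used to label macrophages, whereas in mammals the single gene encodes a protein of extracellular microfibrils. MFAP4_ENSDARG00000038681 had 0, 1013 and 177 counts in the 3 DL libraries, against 0.01, 137.7 and 90.5 counts in the 3 rest libraries. It was at 0 CPM in DL replicate 1 and rest replicate 1, at 38.3 and 16.7 CPM in DL replicates 2 and 3, and at 7.47 and 15.2 CPM in rest replicates 2 and 3. Its log2 fold change was 1.31 ± 2.04 (edgeR adjusted p = 0.999), and with 1 library left out it ran from 0.18 without DL replicate 2 to 2.35 without rest replicate 3. MFAP4_ENSDARG00000038683 showed another order, with 24.51, 202.3 and 59.71 counts in the 3 DL libraries, against 242.5, 37.27 and 0.36 counts in the 3 rest libraries. Its log2 fold change was 0.81 ± 1.17 (edgeR adjusted p = 0.999), or 0.27 without rest replicate 3, 2.39 without rest replicate 1 and 0.07 where libraries were scaled by size alone.

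MFAP4_ENSDARG00000090783 stood at 0, 9.71 and 8.13 CPM in the 3 DL libraries, against 2.92, 1.84 and 2.03 CPM in the 3 rest libraries, with a log2 fold change of 1.39 ± 1.24 (edgeR adjusted p = 0.987). MFAP4_ENSDARG00000088745 stood at 0, 1.93 and 1.51 CPM in the 3 DL libraries, against 0, 1.03 and 2.88 CPM in the 3 rest libraries, with a log2 fold change of -0.12 ± 1.86 (edgeR adjusted p = 0.999). The remaining identifiers, MFAP4_ENSDARG00000090557 and MFAP4_ENSDARG00000089667, stayed at 0.378 CPM or less in DL and at 3.05 CPM or less in the rest and were not tested. With the 6 summed, MFAP4 stood at 3.47, 57.7 and 32.7 CPM in the 3 DL libraries, against 10.35, 13.7 and 24.1 CPM in the 3 rest libraries. The log2 fold change of the sum was 0.98 ± 0.77 (edgeR adjusted p = 0.965).

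Symbols that begin with mfap4 add 7 identifiers, mfap4.4 and mfap4.6 to mfap4.11, which the choice by exact symbol leaves out and which were added after the values were seen. They held most of the family's counts. The 6 MFAP4 members made up 4.96%, 17.6% and 21.4% of family counts in the 3 DL libraries, against 1.51%, 9.58% and 16.5% in the 3 rest libraries. Of the 7 others, 6 were tested and 6 had negative log2 fold changes, from -1.61 to -0.77, and 0 were called. The most counted, mfap4.6, stood at 21.5, 117 and 57.3 CPM in the 3 DL libraries, against 294, 60.5 and 39.3 CPM in the 3 rest libraries (log2 fold change -1.004 ± 0.78, edgeR adjusted p = 0.960). Next was mfap4.8, at 22.5, 93.0 and 35.2 CPM in DL and 227, 36.1 and 30.8 CPM in the rest. Without rest replicate 1 the log2 fold changes of mfap4.6 and mfap4.8 were 0.40 and 0.60, so their sign turned with that library.

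The library in which mfap4.6 was highest, rest replicate 1, had MFAP4_ENSDARG00000038681 at 0.01 counts, whereas that identifier took 11.7% and 10.96% of family counts in DL replicates 2 and 3 and 5.21% and 10.5% in rest replicates 2 and 3. DL replicate 1 also lacked it. The presence of this copy therefore did not follow the DL and rest labels. Family counts were 495, 8692 and 1615 in the 3 DL libraries, against 22510, 2645 and 863 in the 3 rest libraries, so its absence from rest replicate 1 came at the highest family count. Counts of these copies are fractional, and reads shared among near-identical copies make their separate values uncertain.

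**Figure D4:**
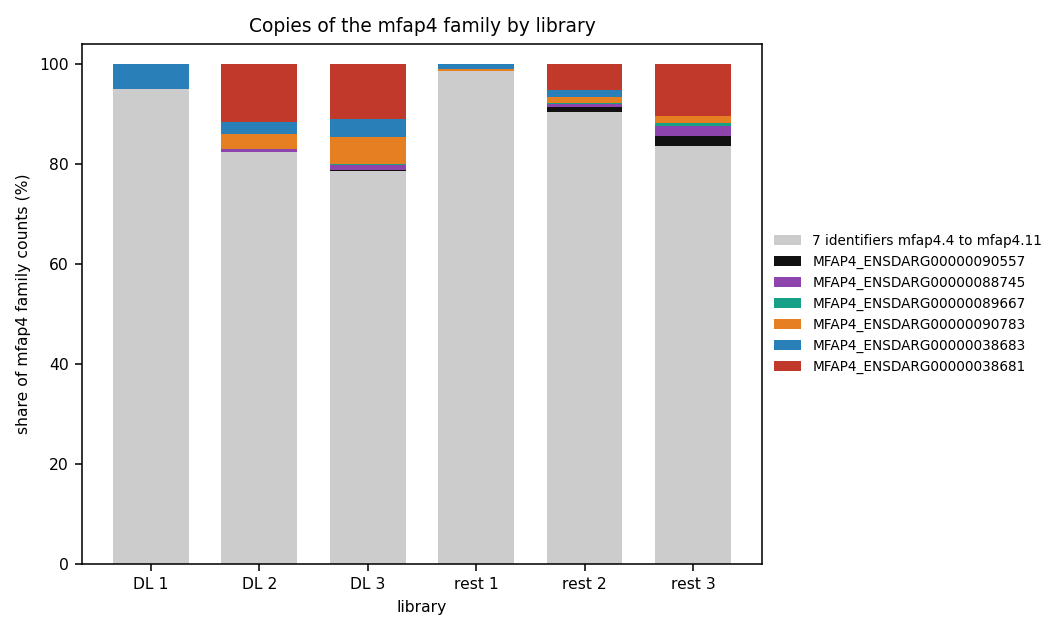
Share (%) of all mfap4 family counts per library taken by each of the 6 MFAP4 members (colours) and by the 7 other family identifiers together (grey), in 3 DL and 3 rest libraries. The red segment, MFAP4_ENSDARG00000038681, is missing from DL replicate 1 and rest replicate 1 and takes 5.21% to 11.7% in the others.

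Other genes of macrophage biology were read from lists of known genes. Of 15 tested growth factor and transcription factor genes, 0 were called, 12 were negative and 3 positive, with a median log2 fold change of -0.89. The gene spi1a, a copy of the myeloid factor PU.1, stood at 7.23, 7.295 and 4.54 CPM in DL libraries, against 30.9, 29.4 and 1.69 CPM in rest libraries (log2 fold change -1.71 ± 0.82, edgeR adjusted p = 0.768). The ligand gene csf1b averaged 10.8 ± 8.66 CPM over DL and 8.46 ± 1.82 CPM over rest libraries (0.35 ± 0.72, edgeR adjusted p = 0.999), and without the library labelled DL replicate 3 its sign turned, to -0.38.

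Of 18 tested complement genes outside C1q, 0 were called, 15 were negative and 3 positive, and the median was -1.20. The lowest p-values belonged to c7a, a component of the membrane attack complex, and cd59a, an inhibitor of that complex. The c7a gene stood at 4.86, 13.003 and 31.0 CPM in the 3 DL libraries, against 29.95, 54.9 and 52.9 CPM in the 3 rest libraries (-1.49 ± 0.62, edgeR adjusted p = 0.651). The cd59a gene averaged 6.72 ± 5.56 CPM over DL and 24.6 ± 21.6 CPM over rest libraries (-1.88 ± 0.89, edgeR adjusted p = 0.748). The c1r gene, encoding a protease that C1q activates, had 0 counts in all 6 libraries. Its list neighbour c1s.1 had 13, 191 and 70 counts in the 3 DL libraries, against 210, 215 and 145 counts in the 3 rest libraries. The naming rule takes neither c1r nor c1s.1.

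Lysosome and granulin genes had a positive median. Of 32 tested, 0 were called, 19 were positive and 13 negative, with a median of 0.20 that turned to -0.18 where libraries were scaled by size alone. In TMM-scaled CPM, every DL library was above every rest library in 5 of 32, against 6.82% of all genes, and below in 0, against 6.28%. PSAP, the precursor of the saposins that help degrade sphingolipids, averaged 377 ± 105 CPM over DL and 170 ± 34.3 CPM over rest libraries (1.15 ± 0.47, edgeR adjusted p = 0.640). Its groups did not overlap in TMM-scaled CPM. Per deposited total they did, with 2332 counts of 13863861 in DL replicate 1 and 6814 of 18329049 in rest replicate 1. CTSC, a lysosomal peptidase that activates granule proteases of leukocytes, averaged 19.75 ± 7.21 CPM over DL and 29.6 ± 11.97 CPM over rest libraries (-0.59 ± 0.50, edgeR adjusted p = 0.977).

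Of 35 tested further macrophage genes, 0 were called, 30 were negative and 5 positive, with a median of -0.98. The chemokine receptor gene cxcr3.2, which guides zebrafish macrophages to infection, had 0, 69 and 18 counts in the 3 DL libraries, against 379, 223 and 30 counts in the 3 rest libraries. Every DL library was lower in TMM-scaled CPM (log2 fold change -2.69 ± 1.08, edgeR adjusted p = 0.621). Per deposited total the groups overlapped, with 69 counts of 22776825 in DL replicate 2 and 30 of 11109171 in rest replicate 3. TLR2, a receptor for bacterial lipoproteins, had 1, 0.01 and 0.01 counts in the 3 DL libraries, against 14.96, 44.03 and 14 counts in the 3 rest libraries. Its log2 fold change, from few counts, was -5.47 ± 2.06 (edgeR adjusted p = 0.558), so it was not called. The gene ms4a17a.1, of a membrane protein family and with every DL library above every rest library, had 48.65, 55.83 and 29.74 counts in the 3 DL libraries, against 16.52, 0.34 and 1.01 counts in the 3 rest libraries (3.97 ± 1.51, edgeR adjusted p = 0.570). The most abundant gene of the list, cd74a, the invariant chain of MHC class II, averaged 357 ± 115 CPM over DL and 271 ± 210 CPM over rest libraries (0.40 ± 0.62, edgeR adjusted p = 0.999), and its sign turned where libraries were scaled by size alone (-0.24).

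**Figure D5:**
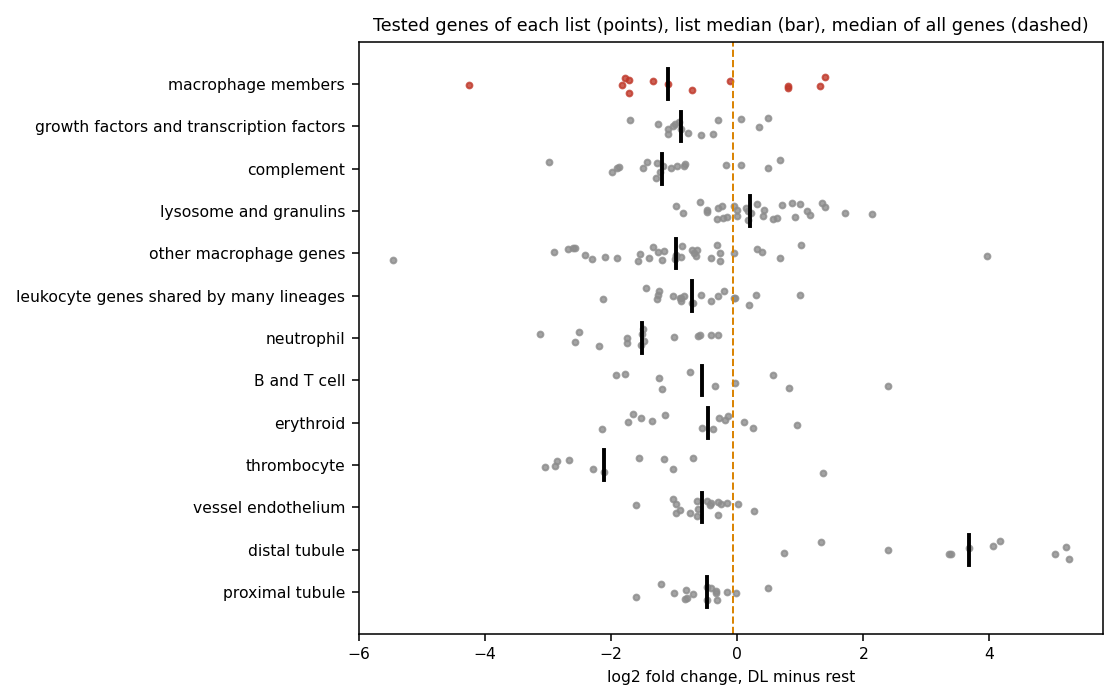
Log2 fold change (DL minus rest, x axis) of each tested gene in 13 lists, with macrophage members in red, black bars at list medians and a dashed line at the median of all genes (-0.07). The macrophage members' median is -1.09, close to that of complement genes (-1.20), and only the distal tubule (3.67) and lysosome (0.20) medians are positive.

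Markers of other blood and kidney cells were read in the same libraries. Of 15 tested neutrophil identifiers 15 were negative and 0 called, with a median of -1.51 and a summed level of 170, 678 and 458 CPM in the 3 DL libraries, against 616, 2393 and 375 CPM in the 3 rest libraries. All 15 had counts in each rest library, and in DL replicate 1 npsn and cxcr1_ENSDARG00000052088 were at 0, as was CXCR1_ENSDARG00000054975 in DL replicate 3. Without rest replicate 2 the neutrophil median was -0.43. The neutrophil gene adam8a, a membrane protease, averaged 20.1 ± 12.1 CPM over DL and 91.95 ± 96.5 CPM over rest libraries (-2.19 ± 0.78, edgeR adjusted p = 0.515). Without rest replicate 2 its log2 fold change was -0.88. Genes shared by many leukocytes, 21 of 21 detected in every library, summed to 241, 677 and 385 CPM in DL and 722, 882 and 326 CPM in the rest, with 18 of 21 negative and a median of -0.72, or -0.32 without rest replicate 2. Their part in the macrophage values was not tested.

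Median log2 fold changes were -0.55 for 10 tested B and T cell genes, -0.47 for 14 erythroid, -2.11 for 11 thrombocyte, -0.55 for 18 vessel endothelium and -0.48 for 16 proximal tubule genes, with 0 called in each list by edgeR. In the B and T cell list 1 gene was called higher by DESeq2 and 1 with no low-count filter in edgeR, against 1.23% and 0.381% of all genes. GATA3, a T cell transcription factor that kidney tubules also use, is in both this list and the distal tubule list and is counted in each. It averaged 99.8 ± 46.4 CPM over DL and 18.9 ± 8.18 CPM over rest libraries, without overlap (log2 fold change 2.39 ± 0.53, edgeR adjusted p = 0.162). Other lists share genes too, which are likewise counted in each. The stab1 and stab2 genes are in the further macrophage and vessel endothelium lists. The FERMT3 identifiers are in the shared leukocyte and thrombocyte lists. The B and T cell and erythroid medians were -1.40 and -1.32 by limma-voom, and the B and T cell and proximal tubule medians were -1.05 and -1.18 where libraries were scaled by size alone. Erythroid genes, 14 to 16 of 16 detected per library, summed to 84.1, 74.5 and 908 CPM in the 3 DL libraries, against 167, 941 and 496 CPM in the 3 rest libraries, and their median was -2.86 without the library labelled DL replicate 3 and 0.04 without rest replicate 2. Of 11 tested distal tubule genes, 11 were positive, 3 were called higher by edgeR, against 0.0644% of all genes, and the median was 3.67. DESeq2 called 9 of them, edgeR with no low-count filter 7 and edgeR with scaling by size alone 0, against 1.23%, 0.381% and 0.00585% of all genes.

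The pattern of the members over the 6 libraries was summarised as the mean of the 13 tested members' log2(CPM + 0.5), each centred and scaled. It was -1.16, 0.33 and 0.08 in the 3 DL libraries, against 0.40, 0.60 and -0.26 in the 3 rest libraries. Over the 6 libraries the Pearson coefficient between pairs of members ran from -0.49 to 0.99 with a median of 0.39 over 78 pairs. The member most like the mean of the others was csf1ra (0.95), followed by grna.1 (0.88) and marco (0.79), and the least like was MFAP4_ENSDARG00000038683 (0.12). Among 6790 other genes, those most like the members' mean were pfn1, ELK3, NEURL1B, ighm, igf2bp2b, laptm5, SLC44A2_ENSDARG00000037059 and unc13d, with coefficients from 0.97 to 0.99. All of these share the same 6 libraries and their scaling, and the values are a description.

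Of those 8 genes, ighm, the immunoglobulin heavy chain of B cells, stood at 4.17, 133 and 72.3 CPM in the 3 DL libraries, against 148, 267 and 66.4 CPM in the 3 rest libraries (log2 fold change -1.20 ± 0.91, edgeR adjusted p = 0.960). The gene laptm5, a lysosomal membrane protein of leukocytes, stood at 1.39, 14.02 and 10.1 CPM in DL libraries, against 13.1, 24.1 and 8.81 CPM in rest libraries (-0.84 ± 0.76, edgeR adjusted p = 0.987). The closest, pfn1, an actin-binding profilin, stood at 52.8, 213 and 163 CPM in DL libraries, against 188, 246 and 121 CPM in rest libraries (-0.37 ± 0.56, edgeR adjusted p = 0.999). All 3 were lowest in DL replicate 1, as was the members' mean by which they were chosen, so this is no separate result. Their groups overlapped.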

How the data were processed

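The authors deposited estimated counts (also called expected counts) for 31953 Ensembl genes, kept to 4 significant digits, and 29.8% of the values are fractional. Per the labels' protocols, RNA was made into libraries with a NuGEN single-cell kit (Ovation). The aligner, counter, strand setting and build were not given in the sources used here. All 6 columns matched a library title. Symbols came from a table of identifiers (26121 matched). A list symbol absent from it was matched without its copy suffix, or else by RefSeq synonym. Symbols matched in none of these ways were left out of their lists. For neutrophils these were mpx, cpa5, lect2l, cxcr2 and pnp5b, and for erythroid cells hbba1, hbba2 and hbba1.1. Also left out were cd163, axl, irg1 and msr1 of the further macrophage genes, and c2, cfi, itgam, gba, psapl1, vav1 and cd53 of other lists.

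Counts were rounded and filtered with filterByExpr, leaving 17083 genes. TMM factors were 0.520 in DL replicate 1, 0.533 in rest replicate 3 and 1.14 to 1.80 otherwise. The groups were tested in edgeR 4.0.16 (R 4.3.3) by quasi-likelihood with robust dispersions, and p-values were adjusted by Benjamini-Hochberg. SE is the size of a log2 fold change divided by the root of its F statistic. Alternatives included DESeq2 1.42.0 and limma-voom with sample quality weights (limma 3.58.1), called limma-voom throughout. The procedure was also run on simulated data with changes placed only in genes averaging above 8 CPM. That run did not cover members below that level, such as c1qc. No 2 libraries held identical values. Replicate numbers follow deposition order, and the labels do not say whether they pair DL with rest libraries. Members and lists were chosen with earlier results of these data known. Named genes are all members, the 2 genes of lowest p per direction and the most abundant of each list, and the 8 genes most like the members (by Pearson r, mean log2 CPM of at least 3). Not every gene this rule takes is reported, and genes outside it are marked, save SLC12A3, npsn and the CXCR1 identifiers. No sequence is shown.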

Additional observations from a re-analysis of the deposited data

How the results depend on the processing

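Across the alternatives, 0 macrophage members were called under each of 17, and the members' median log2 fold change stayed negative, from -1.71 (identifiers of a symbol summed) to -0.61 (without rest replicate 1). Of 208 member values under these alternatives, 202 kept their sign. MFAP4_ENSDARG00000088745 was positive at 1.46 with limma-voom, at 0.37 where libraries were scaled by size alone and at 1.78 once DL replicate 1 and rest replicate 3 were both left out, and ranged from -0.72 to 1.22 over single libraries left out; the cause was not tested. Over the same omissions c1qb ranged from -1.89 to 0.11, csf1b from -0.38 to 0.85, pfn1 from -0.77 to 0.069, mfap4.6 from -1.73 to 0.40, mfap4.8 from -1.76 to 0.60, the difference in the log2 ratio of c1qb to c1qa from -0.24 to 1.14, that of c1qc to c1qa from -5.14 to -2.75 and that of the MPEG1 identifiers from 0.93 to 2.44. Scaling by size alone turned the sign of cd74a (-0.24) and moved the median of all genes to -0.50 and that of the members to -1.64.

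Of all genes, 11 were called by edgeR, 315 by DESeq2, 36 by limma-voom, 1 where libraries were scaled by size alone, 106 with no low-count filter, 0 once DL replicate 1 and rest replicate 3 were both left out, and 0 to 53 with 1 library left out (53 without DL replicate 3). No paired analysis was run because the labels do not say whether DL and rest libraries shared fish. The C1q values rest on the fewest counts in DL replicate 1 and rest replicate 3, with 8 and 15 in all. Neither had the smallest deposited total, which was that of DL replicate 3.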
